A study of Mus musculus with 8 samples.

Results

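The genes *Cyp2b9*, *Cyp2b10*, *Cyp2b13*, *Cyp2b19*, *Por* and *Alas1* were taken by their symbols from the deposited table of liver RNA-seq counts, and all 6 were found among its 24940 genes. Of these, 5 passed the filter on low counts and were tested with the other genes that did, 12340 in all. *Cyp2b19* did not pass. Liver RNA came from 8 C57BL/6 males, 4 per genotype. FXRKO mice, labelled Bcl6(fl/fl), FXR(homo), carry no Cre, lack *Fxr* in the whole body and keep floxed *Bcl6* intact. BCL6LKOFXRKO mice, labelled Alb-Cre, Bcl6(fl/fl), FXR(homo), carry in addition a Cre driven by the Albumin promoter, which deletes *Bcl6* in hepatocytes. Both genotypes therefore share the floxed *Bcl6* alleles and the loss of *Fxr*, and no liver with *Fxr* was analysed here. The age of the mice is not given in the sources used here, and the methods state feeding ad libitum or a short fast as the general rule without giving it for these livers. The replicate numbers below name livers within a genotype and pair none of them. The sample titles also carry serial numbers, which the labels do not explain: FXRKO liver 1 and BCL6LKOFXRKO livers 1 and 2 have the lower numbers and the other 5 livers the higher ones. This split was made here. The lower numbers are no single run, since that of BCL6LKOFXRKO liver 1 lies far below all the others. The labels do not say how the animals were housed or killed, so p-values measure the spread between these 8 livers.

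Cytochromes P450 of the Cyp2b family are haem enzymes of the hepatocyte endoplasmic reticulum that oxidise drugs, steroids and other lipophilic compounds. *Cyp2b10* is the classical target of the constitutive androstane receptor (CAR, encoded by *Nr1i3*), which binds DNA as a heterodimer with RXR. *Cyp2b9* and *Cyp2b13* are known as genes expressed mainly in female mouse liver, and *Cyp2b19* as an enzyme of skin keratinocytes. *Por* encodes the reductase that passes electrons from NADPH to microsomal cytochromes P450, and *Alas1* the rate-limiting enzyme of haem synthesis in liver. Both are also known to rise with activators of CAR, which is why they stand beside the Cyp2b genes here.

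The libraries held between 7586241 and 11839503 counts, and 3 counts, taken as the floor of detection, corresponded to between 0.272 and 0.374 CPM (counts relative to the library total, scaled with TMM factors, as are all CPM below). This floor covers counting error only. *Bcl6* was at 56.2, 65.1, 21.1 and 55.6 CPM in the FXRKO livers and at 11.9, 4.61, 5.54 and 7.71 CPM in the BCL6LKOFXRKO livers, so every library went the way of its label. *Nr1h4*, the gene of FXR, was counted in all 8 livers, and with no liver that has Fxr beside them its level checks no label. Hepatocyte markers such as *Alb* and *Apoa1* were high in all 8 livers. The summed level of 10 stellate cell and fibroblast markers was 271 to 363 CPM in FXRKO and 527 to 596 CPM in BCL6LKOFXRKO livers. Of these markers 7 were called higher (4 without FXRKO liver 3 or BCL6LKOFXRKO liver 4) and 0 lower, where 16.2% and 13.5% of all tested genes were. The summed level of 10 Kupffer cell and macrophage markers was 393 to 557 CPM in FXRKO and 545 to 883 CPM in BCL6LKOFXRKO livers, which overlap. Of these 10, 2 were called higher, near the share of all tested genes. No marker of these lists was without counts. In whole liver, a smaller share of cells of a type and less RNA per cell cannot be told apart.

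The 3 Cyp2b genes with counts lie side by side on chromosome 7 (mm10, plus strand, 9 exons each in the annotation). *Cyp2b10* (NM_009999) spans 25897658 to 25926624, *Cyp2b13* (NM_007813) 26061495 to 26096196 and *Cyp2b9* (NM_010000) 26173409 to 26210660. Further along, *Cyp2b23* and then *Cyp2b19* (NM_007814, 26757142 to 26772630) follow after a gap of 454566 bases from *Cyp2b9* to *Cyp2b23*. *Cyp2b9* and *Cyp2b13* are close copies. Their transcripts were identical at 89.3% of aligned positions, against 84.8% for *Cyp2b9* and *Cyp2b10*, and their promoters were closer still. The windows of 300 bases around their transcription starts, from RefSeq on GRCm38.p6, are shown because they differ at only 2 positions, T48C and C104T, counted from 1 at the 5′ end with the *Cyp2b9* base first. Both positions lie upstream of the start and are in capitals. The same window of *Cyp2b10*, identical to *Cyp2b9* at 72.9% of aligned positions, is shown for comparison, with its match to TTGCNNAA in capitals. They are read on the plus strand from chr7:26173159-26173458 for *Cyp2b9*, chr7:26061245-26061544 for *Cyp2b13* and chr7:25897408-25897707 for *Cyp2b10*.
Cyp2b9: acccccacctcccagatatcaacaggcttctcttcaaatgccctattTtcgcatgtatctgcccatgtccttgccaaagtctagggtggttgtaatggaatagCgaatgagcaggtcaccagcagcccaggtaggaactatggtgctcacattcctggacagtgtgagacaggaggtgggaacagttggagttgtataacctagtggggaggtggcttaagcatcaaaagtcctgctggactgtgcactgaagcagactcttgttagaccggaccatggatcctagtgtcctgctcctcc
Cyp2b13: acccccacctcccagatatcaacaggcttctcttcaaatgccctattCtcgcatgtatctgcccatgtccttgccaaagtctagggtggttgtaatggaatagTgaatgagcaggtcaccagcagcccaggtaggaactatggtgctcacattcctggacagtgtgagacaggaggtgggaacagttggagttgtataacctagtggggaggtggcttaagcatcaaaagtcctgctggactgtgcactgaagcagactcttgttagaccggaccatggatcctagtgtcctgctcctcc
Cyp2b10: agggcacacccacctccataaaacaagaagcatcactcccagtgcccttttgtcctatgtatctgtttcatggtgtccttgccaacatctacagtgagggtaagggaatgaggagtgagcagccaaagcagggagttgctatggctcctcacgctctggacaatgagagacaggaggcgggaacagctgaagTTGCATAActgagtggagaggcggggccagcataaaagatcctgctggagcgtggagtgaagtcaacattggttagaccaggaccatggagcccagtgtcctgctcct

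Half-sites of nuclear receptors (AGGTCA), palindromes bound by STAT proteins (TTCNNNGAA) and C/EBP-like motifs (TTGCNNAA) were searched on both strands. AGGTCA was found at position 113 in both *Cyp2b9* and *Cyp2b13*, at position 130 in *Cyp2b19* and at position 87 in *Cyp2b23*. It was in neither *Cyp2b10* nor the windows of *Por* and *Alas1*. Among 32851 promoter windows of the same length, 16.3% hold it. TTGCNNAA, held by 10.8% of windows, was at position 71 in *Cyp2b9* and *Cyp2b13* and at position 193 in *Cyp2b10*. It was also at position 211 in *Cyp2b19* and at position 166 in *Cyp2b23*. TTCNNNGAA, held by 8.3% of windows, was found among the members only in *Alas1*, at position 80. A match is a string of letters and not a bound site, and enhancers outside the window, such as those CAR uses upstream of *Cyp2b10*, were not searched.

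The comparison of the genotypes addressed what the loss of hepatocyte *Bcl6* does to Cyp2b expression when *Fxr* is already absent. All 3 expressed Cyp2b genes had higher means in BCL6LKOFXRKO livers, *Cyp2b13* passed the test, and *Por* and *Alas1* showed no called difference. Of the 5 members tested, 1 was called higher and 0 lower at an adjusted p under 0.05, while 16.2% of all tested genes were called higher and 13.5% lower (edgeR quasi-likelihood test, Benjamini-Hochberg adjustment over all tested genes). In *Cyp2b10* and *Cyp2b13* every BCL6LKOFXRKO liver was above every FXRKO liver, as in 16.1% of tested genes.

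**Figure D1:**
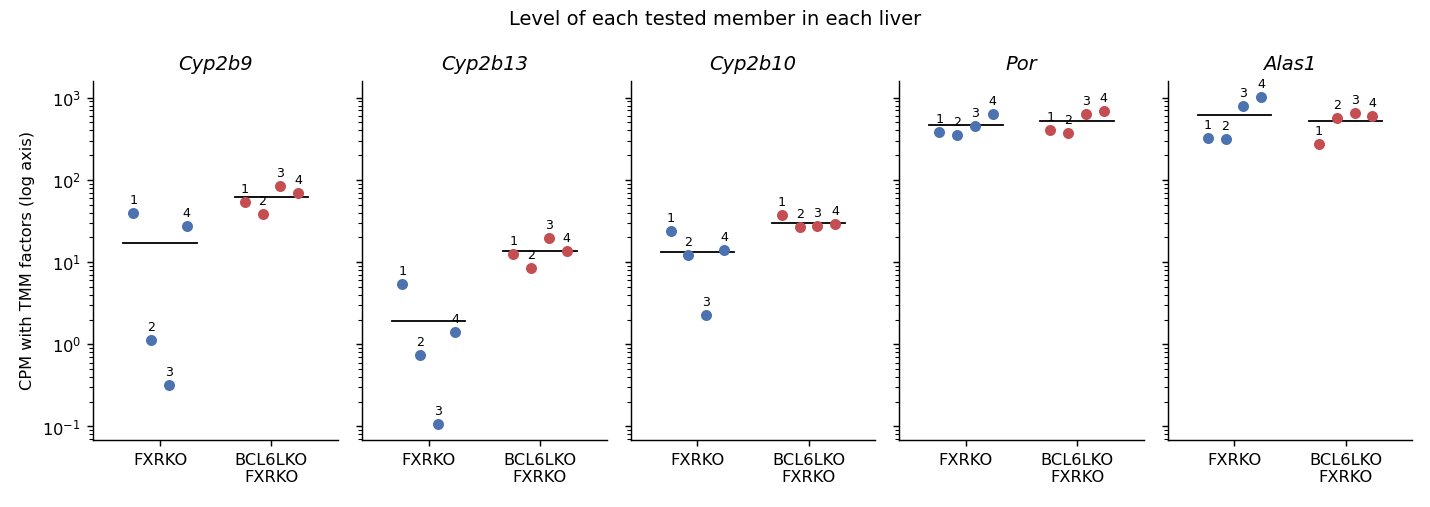
Level of each tested member in each liver, in CPM on a log axis, with the replicate number above each point and a black line at the mean of the 4 livers of a genotype. *Cyp2b9*, *Cyp2b13* and *Cyp2b10* spread far more over the FXRKO livers than over the BCL6LKOFXRKO livers, and only *Cyp2b13* and *Cyp2b10* do not overlap.

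*Cyp2b13* was the member that passed. It was counted 52, 6, 1 and 15 times in FXRKO livers 1 to 4 and 125, 70, 202 and 151 times in BCL6LKOFXRKO livers 1 to 4. In CPM these were 5.40, 0.749, 0.107 and 1.42 against 12.6, 8.48, 19.6 and 13.7. The groups did not overlap, and the lowest BCL6LKOFXRKO liver was above the highest FXRKO liver. The log2 fold change was 2.80 (SE 0.69, 95% interval 1.20 to 4.40, adjusted p = 0.0186 from edgeR), while permuting the livers over all 70 orderings (exact permutation test, two-sided) gave p = 0.029, the smallest that 4 against 4 livers allow. The call was close to the threshold under several alternatives. The adjusted p from edgeR was 0.042 and 0.048 without FXRKO liver 2 or 4, and 0.0445 and 0.0483 without BCL6LKOFXRKO liver 3 or 4. With no filter it was 0.0479. Without FXRKO liver 1, the FXRKO liver with the most *Cyp2b13*, the log2 fold change was 4.1 (adjusted p = 0.000139 from edgeR). Within the 5 livers of the higher title numbers it was 4.38 (adjusted p = 9.01e-05), and 2.82 with the number series as a term (adjusted p = 0.0234). Its values in FXRKO livers 2 and 3 were near or under the floor.

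*Cyp2b10*, the CAR target, was also higher in every BCL6LKOFXRKO liver, but did not pass. Its levels were 24.1, 12.1, 2.25 and 14 CPM in the FXRKO livers and 37.6, 26.7, 27.4 and 29.3 CPM in the BCL6LKOFXRKO livers. The BCL6LKOFXRKO livers lay within a 1.41-fold range, while FXRKO liver 3 was far below the other FXRKO livers and stretched their range to 10.7-fold. The means were 13.1 ± 8.96 and 30.3 ± 5.03 CPM (SD, n = 4), and the log2 fold change was 1.20 (SE 0.52, 95% interval -0.0077 to 2.41, adjusted p = 0.124 from edgeR). The exact permutation test gave p = 0.029. The call changed with the livers: without FXRKO liver 1 the log2 fold change was 1.67 (adjusted p = 0.0383 from edgeR), and without FXRKO liver 3 it was 0.85 (adjusted p = 0.0192), both past the threshold.

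*Cyp2b9* had the highest mean of the Cyp2b genes in either genotype and the least settled difference. It was counted 384, 9, 3 and 290 times in the FXRKO livers, and 538, 313, 857 and 756 times in the BCL6LKOFXRKO livers. In CPM, FXRKO livers 1 and 4 had 39.9 and 27.4, FXRKO livers 2 and 3 had 1.12 and 0.322, and the BCL6LKOFXRKO livers had 54.1, 37.9, 83.4 and 68.6. FXRKO liver 1 was thus above BCL6LKOFXRKO liver 2, and FXRKO liver 3 was at the floor. The FXRKO livers ranged over 124-fold and the BCL6LKOFXRKO livers over 2.2-fold. The means were 17.2 ± 19.7 and 61.0 ± 19.5 CPM (SD, n = 4), 3.55-fold apart, but the log2 fold change of 1.81 had a 95% interval from -0.77 to 4.39 (SE 1.07, adjusted p = 0.257 from edgeR). The exact permutation test gave p = 0.057. With limma voom and sample quality weights the log2 fold change was 3.69 (adjusted p = 0.079).

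*Cyp2b19* was not detected. It had 0 counts in 7 livers and 1 count in BCL6LKOFXRKO liver 4 (0.0907 CPM), so both genotypes were at or under the floor of 3 counts and no fold is given. Keratinocyte markers were likewise near 0, with a summed level of 1.25 to 1.89 CPM in FXRKO and 1.63 to 2.18 CPM in BCL6LKOFXRKO livers, and 4 of 10, *Krt14*, *Krt1*, *Dsg1a* and *Krtdap*, had no counts at all. *Cyp2b23*, the other gene of the family in the table, had 0 counts in all 8 livers.

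The spread of *Cyp2b9* and *Cyp2b10* among FXRKO livers stood out against other genes. Over the 4 FXRKO livers, the SD of log2(CPM + 1) was 2.53 for *Cyp2b9*. The genes set beside it were those counted 50 times or more on average over the 8 livers, 9360 in all, and none had a larger SD. The SD was 1.26 for *Cyp2b10*, with 18 genes above it, while the median gene had 0.156. It was 1.07 for *Cyp2b13*, which reached that average only through its counts in the BCL6LKOFXRKO livers. The counts of *Cyp2b13* in FXRKO livers 1 to 4 were 52, 6, 1 and 15, so its rank among FXRKO livers is not given. The part of counting error in its spread was not tested. In BCL6LKOFXRKO livers the SDs were 0.48, 0.22 and 0.46, beside a median of 0.215, and 492, 4540 and 590 genes had larger values. Whether the spread itself differed between the genotypes was not tested. The FXRKO libraries held 9105277, 7586241, 8758670 and 10056721 counts, so livers 1 and 4, those with the most *Cyp2b9*, were also the deepest, and the part of depth was not tested.

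**Figure D2:**
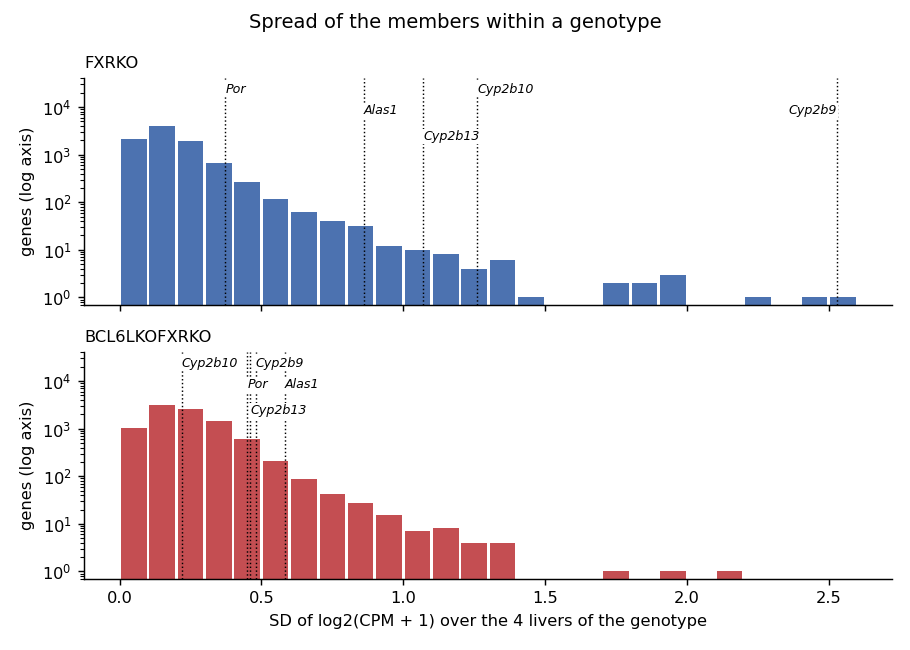
SD of log2(CPM + 1) over the 4 livers of FXRKO (top) and BCL6LKOFXRKO (bottom) for 9360 genes, as histograms with the number of genes on a log axis and dotted lines at the tested members. *Cyp2b9* sits at the far right of the FXRKO histogram at 2.53, and at 0.48 in BCL6LKOFXRKO.

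Per kilobase of transcript, the make-up of the counted Cyp2b transcripts also varied among FXRKO livers. Their sum was 37.2, 7.49, 1.44 and 22.9 CPM per kb in FXRKO and 55.9, 39.2, 69.9 and 59.8 CPM per kb in BCL6LKOFXRKO livers. *Cyp2b10* made up 86.6% and 84.0% of it in FXRKO livers 2 and 3, and 34.7% and 32.7% in livers 1 and 4, where *Cyp2b9* made up 57.5% and 64.0%. In BCL6LKOFXRKO livers *Cyp2b9* led everywhere, with 51.9% to 63.9%, beside 21.0% to 36.5% for *Cyp2b10* and 11.6% to 15.1% for *Cyp2b13*. The share of *Cyp2b13* was thus above that in FXRKO livers, where it was 3.31% to 7.79%, without overlap. In FXRKO livers 2, 3 and 4 that share rests on 6, 1 and 15 counts of *Cyp2b13*, so it is imprecise, and the difference in share was not tested. The ratio of *Cyp2b9* to *Cyp2b13* per kilobase was nearly constant in BCL6LKOFXRKO livers, at 4.24 to 5, and ranged from 1.5 to 19.3 in FXRKO livers, in which the lowest ratios rest on a few counts. Cyp2b transcripts stayed a small part of the cytochromes: of the summed level per kilobase of the 80 genes named Cyp1 to Cyp4, they made up 0.00741% to 0.197% in FXRKO and 0.348% to 0.453% in BCL6LKOFXRKO livers.

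**Figure D3:**
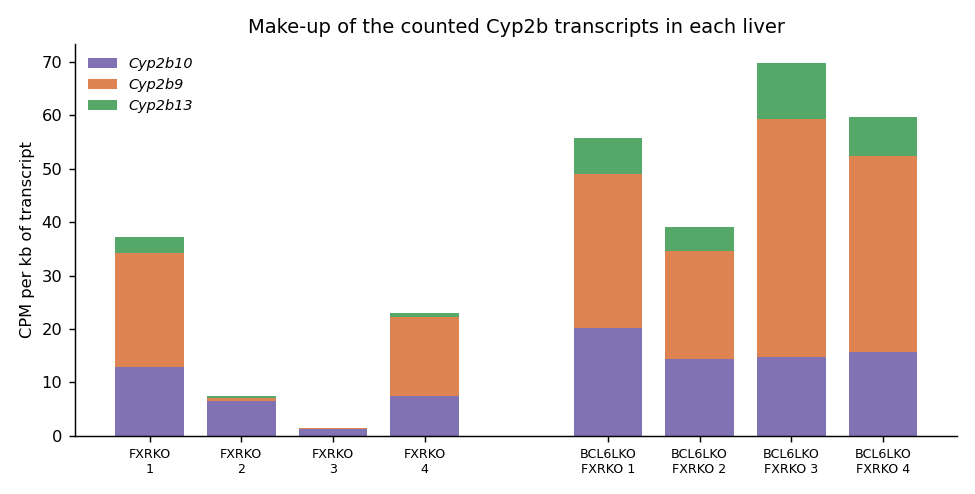
Stacked level of *Cyp2b10*, *Cyp2b9* and *Cyp2b13* in each liver, in CPM per kilobase of transcript, for FXRKO livers 1 to 4 (left) and BCL6LKOFXRKO livers 1 to 4 (right). *Cyp2b9* takes most of every BCL6LKOFXRKO bar, and FXRKO livers 2 and 3 hold almost only *Cyp2b10*.

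*Por*, the electron donor, showed no called difference. Its levels were 386, 355, 457 and 638 CPM in FXRKO livers and 402, 374, 640 and 687 CPM in BCL6LKOFXRKO livers, so the genotypes overlapped and each had livers at both ends. The log2 fold change was 0.19 (SE 0.23, adjusted p = 0.567 from edgeR), with a 95% interval from -0.32 to 0.71. The exact permutation test gave p = 0.57. The cytochromes it serves differed in sum, largely through *Cyp2e1*, an ethanol-oxidising cytochrome: the 80 genes named Cyp1 to Cyp4 reached 32334 to 38550 CPM in FXRKO and 20682 to 29624 CPM in BCL6LKOFXRKO livers. Per kilobase, they came to 82.7 to 124 times the level of *Por* in FXRKO and 48.3 to 79.7 times in BCL6LKOFXRKO livers, without overlap, as a description with no test. Without *Cyp2e1*, the other 79 reached 23209 to 25440 CPM and 18571 to 26114 CPM, and 52.8 to 86.7 and 42.2 to 69.8 times the level of *Por*, so both measures overlapped.

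*Alas1* was the most variable of the non-Cyp2b members. It was at 326, 315, 788 and 1007 CPM in FXRKO livers and at 271, 560, 656 and 594 CPM in BCL6LKOFXRKO livers. FXRKO livers 3 and 4 were the highest of all 8 and BCL6LKOFXRKO liver 1 the lowest. The log2 fold change was -0.23 (SE 0.45, 95% interval -1.27 to 0.81, adjusted p = 0.742 from edgeR), and the exact permutation test gave p = 0.89. Without FXRKO liver 4 the sign turned, to 0.13 (adjusted p = 0.852), and with the number series as a term it was 0.01 (adjusted p = 0.986). Of the 9360 genes, 60 had a larger SD of log2(CPM + 1) than *Alas1* in FXRKO livers (0.86) and 218 in BCL6LKOFXRKO livers (0.58). An antisense gene, *4930500F10Rik*, overlaps 465 of the 3399 exon bases of *Alas1*, and the stated counting does not name a strand, so its reads cannot be told apart from those of *Alas1*.

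**Figure D4:**
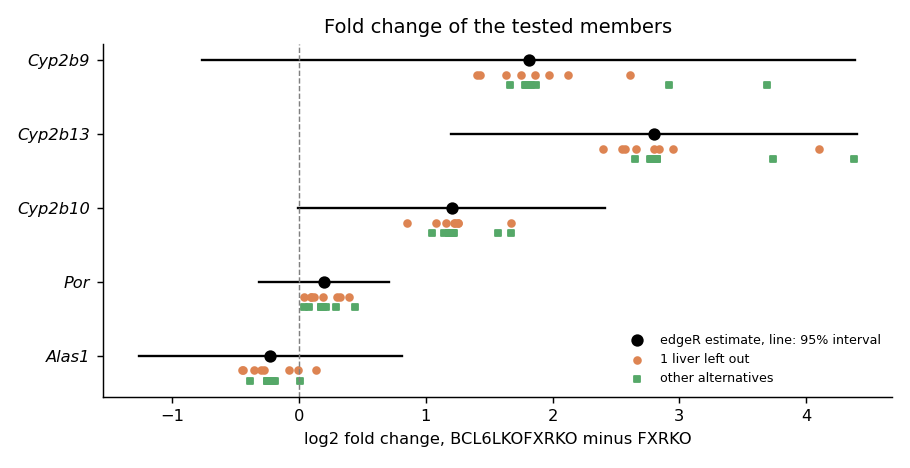
Log2 fold change of each tested member, BCL6LKOFXRKO minus FXRKO, with its 95% interval from edgeR (black), the values with 1 liver left out (orange) and those under other alternatives (green squares). The interval of *Cyp2b13* lies above 0 at 1.20 to 4.40, and those of the other members reach 0 or cross it.

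Ordered by level per kilobase, the members fell into an upper pair and a lower trio. In FXRKO livers *Alas1* was at 227 ± 128 and *Por* at 183 ± 50.5 CPM per kb (SD, n = 4), followed by *Cyp2b9* at 9.21 ± 10.6, *Cyp2b10* at 7.02 ± 4.80 and *Cyp2b13* at 1.03 ± 1.28. In BCL6LKOFXRKO livers *Por* was at 209 ± 64.0, *Alas1* at 194 ± 63.5, *Cyp2b9* at 32.7 ± 10.4, *Cyp2b10* at 16.2 ± 2.70 and *Cyp2b13* at 7.29 ± 2.47 CPM per kb. *Alas1* and *Por* lay within each other's spread in both genotypes, and so did *Cyp2b9* and *Cyp2b10* in FXRKO livers.

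Whether members changed by different amounts was tested within livers for the 10 pairs. No pair was called after adjustment (lowest adjusted p = 0.14, exact permutation tests). The smallest exact p with 4 against 4 livers is 0.029, so after adjustment over 10 pairs a few pairs alone cannot pass 0.05. The lack of a call therefore does not show that the members changed alike. At unadjusted p under 0.05, 2 pairs stood out, both involving *Cyp2b13*. The log2 ratio of *Cyp2b10* to *Cyp2b13* changed by -1.13 in BCL6LKOFXRKO livers (2.27 ± 0.62 in FXRKO and 1.14 ± 0.51 in BCL6LKOFXRKO, SD, n = 4, exact permutation p = 0.029), and that of *Cyp2b13* to *Por* was 2.41 higher (exact permutation p = 0.029). The ratio of *Cyp2b9* to *Cyp2b13* differed by 0.39 on the log2 scale (exact permutation p = 0.66), with an SD of 1.68 in FXRKO and 0.11 in BCL6LKOFXRKO livers. These sizes depend on the pseudocount: at 0.1 CPM in place of 1, the difference was -1.98 for *Cyp2b10* to *Cyp2b13* and 3.39 for *Cyp2b13* to *Por*, and that of *Cyp2b9* to *Cyp2b13* was 0.01. The pairs share members and are not independent of each other.

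Reads of the Cyp2b genes can be confused with each other. Of all stretches of 100 bases, the read length, in the transcript of *Cyp2b13*, 9.29% also occur exactly in another gene's transcript, mostly in the predicted gene *Gm45225*, and 1.18% of those of *Cyp2b9*, all in *Cyp2b13*. The authors kept only reads with a single location, so such reads are missing from both genes. *Cyp2b10*, *Por* and *Alas1* have no such stretch. Within 4 mismatches, the number the alignment allowed, 30.4%, 44.9% and 25.5% of the stretches of *Cyp2b9*, *Cyp2b13* and *Cyp2b10* match another Cyp2b transcript. Within 1 mismatch, the shares were 5.97%, 6.64% and 0.66%. These shares describe the transcripts and do not measure how many reads were placed on the wrong gene. The part of misplaced reads in the levels of *Cyp2b9* and *Cyp2b13* was not tested.

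The next genes of the Cyp2a-Cyp2b cluster on chromosome 7 did not all move with *Cyp2b13*. Of 5 tested, 2 rose and 2 fell, where 16.2% and 13.5% of all tested genes did. *Cyp2a4*, a steroid hydroxylase known as a female-predominant gene, rose from 138, 5.87, 8.48 and 94.5 CPM in FXRKO livers to 2387, 2829, 3825 and 3582 CPM in BCL6LKOFXRKO livers (log2 fold change 5.67, SE 1.17, adjusted p = 0.0126 from edgeR). Within the 5 livers of the higher title numbers its log2 fold change was 6.64 and was not called (adjusted p = 0.0873). Among FXRKO livers, 1 and 4 were thus higher in *Cyp2a4* than 2 and 3, as for *Cyp2b9* and *Cyp2b13*. *Cyp2g1* rose from 4.79 ± 1.02 to 24.7 ± 3.17 CPM (SD, n = 4, log2 fold change 2.36, adjusted p = 6.64e-07 from edgeR), with no such split among the FXRKO livers. *Cyp2f2* and *Cyp2a12* fell, with log2 fold changes of -1.52 and -0.77 (adjusted p = 0.000662 and 0.000513 from edgeR), and *Cyp2a5*, the coumarin hydroxylase, was not called (log2 fold change 0.54, adjusted p = 0.307). *Cyp2a4* and *Cyp2a5* are near-identical copies, so the split of reads between them is uncertain. *Cyp2a22* did not pass the filter, with 3.22 CPM in FXRKO liver 1, 35.8 and 31.0 CPM in BCL6LKOFXRKO livers 1 and 2, and at most 0.181 CPM in the others. The 3 livers with *Cyp2a22* are those with the lower title numbers, and they come from both genotypes. Among these 3, both BCL6LKOFXRKO livers were above the FXRKO liver, and the part of genotype in that gap was not tested. Whether the mice of the number series differ in origin or genetic background is not given in the sources used here.

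By the root mean square difference between centred log2(CPM + 1) profiles over the 8 livers, the gene most like *Cyp2b9* among 9359 was *Cyp2b13* (difference 1.1), with *Ly6d* and *Cd63* also at 1.1, which is no close likeness. *Cyp2b13* was nearest to *Mmp12* (0.35), *Cd63* (0.36) and *Mtmr11* (0.43), and *Cyp2b10* to *Mmp12* (0.48), *Cd14* (0.49) and *Fkbp5* (0.53). *Por* was nearest to *Polr3gl* (0.14), *Tnks1bp1* (0.16) and *Adcy6* (0.17), and *Alas1* to *Per1* (0.32), *Lonrf1* (0.34) and *Slc20a1* (0.37). *Cd14*, a monocyte and macrophage antigen, was at 7.79, 3.99, 1.29 and 4.82 CPM in FXRKO and 6.24, 8.97, 8.56 and 8.43 CPM in BCL6LKOFXRKO livers. FXRKO liver 3 was the lowest for *Cd14* as for *Cyp2b10*, and the part of macrophage RNA in the Cyp2b levels was not tested.

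CAR itself did not rise with *Cyp2b13*. *Nr1i3* was at 147, 137, 148 and 196 CPM in FXRKO and 90.4, 64.4, 106 and 140 CPM in BCL6LKOFXRKO livers, a log2 fold change of -0.64 (SE 0.21, adjusted p = 0.0338 from edgeR). Of the BCL6LKOFXRKO livers, only liver 4 overlapped the FXRKO range. This call was lost without FXRKO liver 3 or 4 (adjusted p = 0.053 and 0.0913) and without BCL6LKOFXRKO liver 1 or 3 (adjusted p = 0.0833 and 0.0622), and within the livers of the higher title numbers (adjusted p = 0.185). *Rxra*, the gene of its heterodimer partner RXRα, fell from 604 ± 25.1 to 400 ± 63.4 CPM (SD, n = 4, log2 fold change -0.60, adjusted p = 0.00365). *Nr1i2*, which encodes the related xenobiotic receptor PXR and also acts on *Cyp2b10*, was not called (log2 fold change -0.27, adjusted p = 0.197), though it passed the threshold with total counts alone, with limma voom and without BCL6LKOFXRKO liver 4.

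Of 24 tested receptors and partners of CAR, 9 fell and 1 rose, with a median log2 fold change of -0.35, while over all tested genes 13.5% fell and 16.2% rose and the median was 0.01. *Egfr*, whose signalling holds CAR inactive in the cytoplasm, fell from 524, 581, 452 and 547 CPM to 91.7, 251, 119 and 74.4 CPM (log2 fold change -1.98, SE 0.36, adjusted p = 0.0035 from edgeR). *Nr0b2* (SHP), a corepressor of nuclear receptors and an FXR target, fell from 12.4 ± 3.74 to 0.87 ± 0.47 CPM (SD, n = 4, log2 fold change -3.85, adjusted p = 4.14e-06). *Prkaa2*, a catalytic subunit of AMP-activated kinase, the co-chaperone *Ptges3* and the corepressor *Ncor1* fell, with log2 fold changes of -1.08, -0.58 and -0.48 (adjusted p = 0.00102, 0.00282 and 0.0164); the call of *Ncor1* was lost without FXRKO liver 2 (adjusted p = 0.0588). The member that rose was *Fkbp5*, a co-chaperone of steroid receptors, at 78.5, 63.5, 32.2 and 108 CPM in FXRKO and 124, 163, 149 and 168 CPM in BCL6LKOFXRKO livers (log2 fold change 1.10, SE 0.31, adjusted p = 0.025). That call was lost with no filter (adjusted p = 0.0688) and without FXRKO liver 2 or BCL6LKOFXRKO liver 2, 3 or 4 (adjusted p between 0.0554 and 0.0955).

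Other known CAR targets went both ways. Of 45 tested, *Cyp2b10*, *Por* and *Alas1* among them, 15 rose and 12 fell, where 16.2% and 13.5% of all tested genes did, with a median log2 fold change of 0.19. The smallest adjusted p among those that rose belonged to the aldehyde dehydrogenase gene *Aldh1a7* (402 ± 46.4 to 1420 ± 85.4 CPM, SD, n = 4, log2 fold change 1.82), the efflux transporter *Abcc4* (log2 fold change 2.60) and the glutathione transferase *Gstm3* (log2 fold change 2.31). Among those that fell it belonged to *Cyp2c50* (919 ± 81.1 to 82.9 ± 27.7 CPM, log2 fold change -3.47), *Cyp2c54* (log2 fold change -3.01) and *Fmo5* (log2 fold change -1.06). *Cyp2c50* and *Cyp2c54* are near-identical copies.

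Of 23 tested transcription factors linked to Cyp2b genes, 11 fell, 3 rose and 9 were not called, with a median log2 fold change of -0.47. Over all tested genes 13.5% fell and 16.2% rose. *Bcl6*, deleted by design, is among the 11. So is *Nr1h4*, the gene of FXR, which both genotypes lack (log2 fold change -0.46, adjusted p = 0.00498 from edgeR). *Nr1h4* was not called within the livers of the higher title numbers (adjusted p = 0.102). Among those that fell, *Cebpa* and *Cebpb* encode C/EBP proteins that bind Cyp2b promoters, with log2 fold changes of -0.70 and -0.62 (adjusted p = 0.00315 and 0.00328 from edgeR); *Cebpb* was not called within the livers of the higher title numbers (adjusted p = 0.0828). *Foxa1* and *Ppara* fell as well, with log2 fold changes of -1.64 and -0.99, whereas *Hnf4a* was not called (log2 fold change -0.18, adjusted p = 0.41). *Cux2* and *Trim24* rose: *Cux2*, known as a female-specific liver factor, went from 0.312, 0.374, 2.15 and 4.72 CPM to 70.5, 96.4, 96.5 and 85.5 CPM (log2 fold change 5.45, SE 0.56, adjusted p = 0.000242). Its order among FXRKO livers was not that of *Cyp2b9*, which was highest in livers 1 and 4. The third that rose, the oestrogen receptor gene *Esr1* (log2 fold change 1.22, adjusted p = 0.0448), lost its call under most alternatives. These were no filter, total counts alone, the number series as a term and any 1 liver other than BCL6LKOFXRKO liver 4 left out (adjusted p between 0.0585 and 0.109). Within the livers of the higher title numbers its adjusted p was 0.275.

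**Figure D5:**
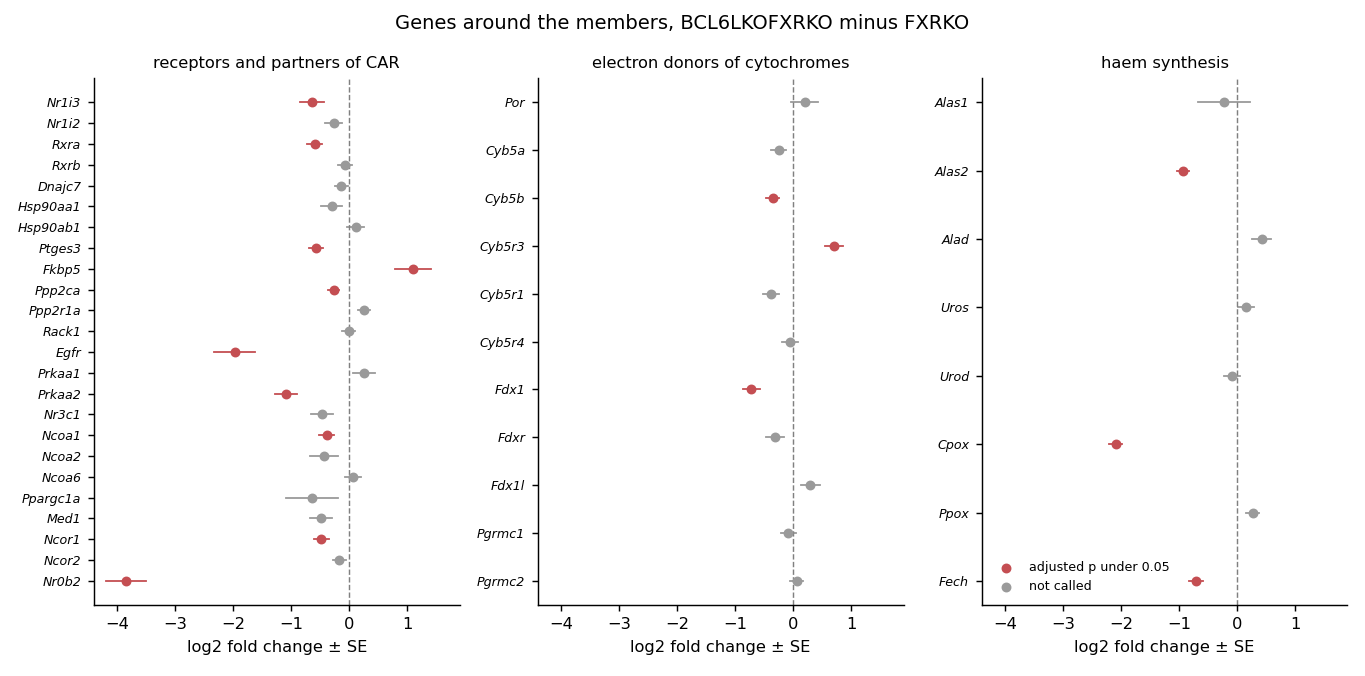
Log2 fold change, BCL6LKOFXRKO minus FXRKO, with its SE from edgeR, of tested genes in 3 lists: receptors and partners of CAR, electron donors of cytochromes and haem synthesis. Red points have an adjusted p under 0.05; *Nr0b2*, *Egfr* and *Cpox* lie furthest below 0, and *Por* and *Alas1* are grey.

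Of 11 tested electron donors, *Por* included, 1 rose and 2 fell, shares near those of all tested genes (16.2% and 13.5%), and their median log2 fold change was -0.09; 4 fell without BCL6LKOFXRKO liver 4 and 5 with total counts alone. *Cyb5r3*, the reductase of cytochrome b5, rose from 751 ± 95.7 to 1227 ± 245 CPM (SD, n = 4, log2 fold change 0.71, adjusted p = 0.00426 from edgeR). *Cyb5a*, the microsomal cytochrome b5, was not called (log2 fold change -0.25, adjusted p = 0.143) except with total counts alone. *Fdx1*, the ferredoxin that serves mitochondrial cytochromes, fell from 84.0 ± 19.2 to 51.0 ± 2.36 CPM (log2 fold change -0.72, adjusted p = 0.00268). *Cyb5b*, the outer mitochondrial form, fell by 0.35 on the log2 scale (adjusted p = 0.0335), a call that was lost without any 1 of 6 livers, FXRKO livers 1 to 4 and BCL6LKOFXRKO livers 1 and 3 (adjusted p between 0.0502 and 0.0924).

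Among genes of haem synthesis, *Cpox*, *Fech* and *Alas2* fell. Of 8 tested genes 3 fell and 0 rose (1, *Alad*, without BCL6LKOFXRKO liver 2 or 3), with a median log2 fold change of -0.16. Over all tested genes 13.5% fell and 16.2% rose. *Alad*, *Uros* and *Urod*, which act between *Alas1* and *Cpox*, were not called, with log2 fold changes of 0.42, 0.15 and -0.10. *Cpox*, the coproporphyrinogen oxidase of mitochondria, fell from 142, 129, 127 and 119 CPM to 35.3, 29.6, 27.9 and 28.2 CPM (log2 fold change -2.10, SE 0.12, adjusted p = 5.17e-08 from edgeR). *Ppox* was not called (log2 fold change 0.27, adjusted p = 0.0877), and *Fech*, the ferrochelatase that inserts iron, fell from 186 ± 16.0 to 115 ± 14.2 CPM (SD, n = 4, log2 fold change -0.70, adjusted p = 0.000765). *Alas2*, the erythroid counterpart of *Alas1*, fell from 217 ± 20.7 to 114 ± 7.30 CPM (log2 fold change -0.93, adjusted p = 4.37e-05), and red cell RNA in the tissue cannot be told apart from hepatocyte RNA.

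Of 21 tested genes of haem transport, mitochondrial handling and breakdown, 3 rose and 6 fell, with a median log2 fold change of -0.07. Over all tested genes 16.2% rose and 13.5% fell. The 6 came to 2 or 3 when any 1 of 7 livers, all but BCL6LKOFXRKO liver 4, was left out. *Flvcr2* rose by 1.07 on the log2 scale (adjusted p = 0.00281 from edgeR, 0.0673 within the livers of the higher title numbers) and *Slc48a1* by 0.50 (adjusted p = 0.0162). *Hpx*, the plasma haem carrier, rose from 7204 ± 2040 to 12855 ± 3168 CPM (SD, n = 4, log2 fold change 0.84, adjusted p = 0.0128 from edgeR). *Abcb10*, a mitochondrial transporter needed for haem synthesis, fell by 0.74 on the log2 scale (adjusted p = 0.00327). Of 10 tested regulators of *Alas1*, 1 rose and 2 fell (1 where the call of *Nr1i3* was lost). The immediate early gene *Egr1* rose from 13.1 ± 7.05 to 66.2 ± 16.8 CPM (SD, n = 4, log2 fold change 2.34, adjusted p = 0.00131). *Nr1i3*, described above, and *Foxo1*, a fasting-activated factor known to act on *Alas1*, fell (*Foxo1* log2 fold change -0.73, adjusted p = 0.0156); the call of *Foxo1* was lost without BCL6LKOFXRKO liver 4 (adjusted p = 0.0614).

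Among FXRKO livers, regulators of *Alas1* stood beside it as follows. *Foxo1* was at 30.7, 31.8, 30.1 and 54.9 CPM and *Ppargc1a*, the fasting-induced coactivator of *Alas1*, at 3.53, 1.62, 3.01 and 8.98 CPM in FXRKO livers 1 to 4. Both were highest in liver 4, the liver with the most *Alas1*, and neither was high in liver 3, which had the next most. *Nr1d1*, the circadian repressor REV-ERBα, was at 186, 141, 105 and 94.8 CPM in the same livers, higher in the 2 with less *Alas1* than in the 2 with more, and at 163, 145, 132 and 181 CPM in BCL6LKOFXRKO livers. The clock gene *Per1*, the nearest profile to *Alas1*, was at 36.4, 30.5, 53.0 and 87.5 CPM in FXRKO and 21.1, 32.6, 55.7 and 69.9 CPM in BCL6LKOFXRKO livers. The hour of collection is not given in the sources used here, and the part of feeding or time of day in the levels of *Alas1* was not tested.

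Markers of liver zones stand beside these values, since Cyp2b and *Por* transcripts are known to be higher around the central vein. For the counts below, 16.2% of all tested genes rose and 13.5% fell. Of 10 pericentral markers 3 rose, *Slc1a2*, *Rhbg* and *Lhpp*, and 1 fell, *Cyp2e1*, and their summed level was 12714 to 17244 CPM in FXRKO and 4673 to 7903 CPM in BCL6LKOFXRKO livers. *Cyp2e1* accounts for that gap: the other 9 sum to 3590 to 4134 CPM and 2562 to 4393 CPM, which overlap. *Glul*, the defining pericentral gene, was not called (log2 fold change -0.31, adjusted p = 0.209 from edgeR). Of 9 periportal markers 3 fell, *Pck1*, *Cyp2f2* and *Hsd17b13* (6 with total counts alone, 5 without BCL6LKOFXRKO liver 2), and 0 rose. The summed level of the 9 was 3971 to 6415 and 2435 to 3371 CPM. Much of that gap lies in *Pck1* (means 2610 and 856 CPM) and *Cyp2f2* (means 1254 and 437 CPM). Each of the 6 markers not called overlapped between the genotypes, and a sum without *Pck1* and *Cyp2f2* was not taken. Of 9 hepatocyte markers 3 rose and 1 fell, and *Alb* alone went from between 38187 and 48471 CPM to between 127623 and 146757 CPM. With DESeq2, with total counts alone and within the livers of the higher title numbers 2 fell, as they did without FXRKO liver 1 or BCL6LKOFXRKO liver 2. With the 50 most counted genes left out 1 rose and 0 fell, and markers among those 50 were not tested there. Of 6 tested cholangiocyte markers 2 rose, *Krt19* and *Spp1*, and 0 fell (1 rose without any 1 of 6 livers, all but FXRKO liver 1 and BCL6LKOFXRKO liver 3). The sum for all 10 was 59.5 to 87.7 CPM in FXRKO and 93.5 to 158 CPM in BCL6LKOFXRKO livers. *Spp1*, with means of 43.3 and 87.1 CPM, is the larger part of that sum. *Sox9* was lower but not called (log2 fold change -0.81, adjusted p = 0.0773 from edgeR). Of 8 endothelial markers 1, *Stab2*, rose and 0 fell, with sums of 187 to 255 and 242 to 317 CPM. The part of zonation and cell make-up in the Cyp2b values was not tested.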

How the data were processed

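Stranded poly(A) libraries were read from a single end over 100 bases. STAR 2.5.2 placed the reads on mm10, where those with a single location and no more than 4 mismatches were kept. The authors then deposited HOMER 4.10 exon counts for each gene, unnormalized. The paper's methods name DESeq2 for testing. Each of the 8 columns matched a label, and 0 columns were left without a sample. Here the counts were filtered with filterByExpr, scaled with TMM and tested with edgeR 4.0.16 in R 4.3.3 by robust quasi-likelihood fits, with Benjamini-Hochberg adjustment over 12340 genes and a threshold of 0.05. Single values and pair ratios were compared with exact permutation tests on log2(CPM + 1). The alternatives were DESeq2 1.42.0, limma 3.58.1 voom, other scalings, filters and pseudocounts, each liver left out and, chosen after seeing the data, the series of title numbers as a term or its higher part alone. Scripts were tested on simulated data.

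The members, lists and tests were chosen with earlier results of these data known. Gene lists were written by hand and are described by counts and medians only. The genes named are the members, genes of the lists on CAR, cytochrome partners, haem synthesis, the gene cluster, transcription factors and regulators of *Alas1*, the smallest adjusted p-values or the defining markers in other lists, and the 3 nearest profiles of each member. Of 25 receptors and partners of CAR and 13 electron donors, 24 and 12 were in the table. Sequences are from RefSeq and transcripts from GENCODE, both GRCm38. Some items of these data are not reported here.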

Additional observations from a re-analysis of the deposited data

Results flagged for a closer look

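In 9 of 120 sets of 4 livers of a genotype, the highest or lowest liver lay far from the rest (Dixon's criterion, the share of the range taken up by that gap). Chance gives about 1 such set in 20. *Cyp2b19* was at 0.0907 CPM in BCL6LKOFXRKO liver 4, which is 1 count, beside 0 in the others. In FXRKO livers, *Foxo1* was at 54.9 CPM in liver 4 beside 30.1 to 31.8, and *Ncor1* at 75.5 CPM in liver 2 beside 59.6 to 60.5. FXRKO liver 1 stood apart in *Cyp2a12* (581 CPM beside 739 to 747), *Ppox* (24.5 CPM beside 21.1 to 21.6) and *Gstm3* (294 CPM beside 160 to 181). In BCL6LKOFXRKO livers, *Hnf4a* was at 824 CPM in liver 2 beside 603 to 635, *Pgrmc1* at 897 CPM in liver 2 beside 1138 to 1167, and *Alad* at 339 CPM in liver 4 beside 202 to 217. FXRKO livers 1 and 4 differ from livers 2 and 3 in *Cyp2b9* as pairs, which this criterion for a single liver does not pick out.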

How the results depend on the processing

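Of up to 17 alternatives per member, 2 were chosen after seeing the data: the series of title numbers as a term, and only the 5 livers of the higher numbers. Over all 17, *Cyp2b13* remained called wherever it was tested, with log2 fold changes from 2.40 to 4.38 and adjusted p from 9.01e-05 to 0.0483, but a filter of at least 10 counts in every liver removed it and *Cyp2b9*. *Cyp2b9* (1.40 to 3.69) and *Por* (0.04 to 0.44) were called under none. *Cyp2b10* ranged from 0.85 to 1.67 with each liver left out and passed the threshold at both ends of that range. *Alas1* ranged from -0.45 to 0.13 with each liver left out, turning sign without FXRKO liver 4 and with the number series as a term (0.01), and was called under none. Total counts alone, without TMM, moved the median log2 fold change of all genes from 0.01 to -0.15 and gave 1403 genes higher and 2956 lower, against 1994 and 1665; the cause was not tested. With each liver left out, 1584 to 1873 genes were higher and 1267 to 1668 lower, and DESeq2 gave 2033 and 1761. The number series as a term gave 1937 and 1551, and the livers of the higher numbers alone 1340 and 1020, with 5 livers in place of 8. In those 5 livers *Cyp2a4*, *Nr1h4*, *Nr1i3*, *Fkbp5*, *Cebpb*, *Cyb5b*, *Flvcr2* and *Esr1* were not called (adjusted p from 0.0673 to 0.275). A pseudocount of 0.1 CPM moved no single value across the threshold, and no pair ratio passed it at either pseudocount. For the pair ratios, the smallest exact p leaves little room to pass after adjustment. Leaving out a liver makes 0.0571 the smallest exact p, so these tests were not repeated that way.

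For genes that are no members, 2 that were never called turned sign: *Uros* (-0.02 with total counts alone) and *Ppargc1a* (0.02 without FXRKO liver 4, and -0.90 to 0.02 over all livers left out). No paired analysis was possible because the labels give the genotypes no shared replicate numbers. The title numbers were split into series here and name no pairs. Genes with few counts, *Cyp2b13* and *Cyp2b9* in FXRKO livers 2 and 3 above all, are imprecise at this depth.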
